A study of Mus musculus with 4 samples.

Results

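The 37 genes described here carry glucose through glycolysis to lactate or belong to the transcriptional response to low oxygen. They were chosen by gene symbol and not by a rule on measured levels, but with earlier results of these data known. Comparisons of the list with all genes may therefore not be independent of the data. All 37 were found among the 32285 genes of the count matrices. Single cells came from tumours of MC38, a mouse colorectal carcinoma line: 100000 MC38 cells were placed under the skin of 8-week-old mice, and CD45-positive cells, which are leukocytes, were sorted from the tumours for 3′ single-cell RNA sequencing. Of the 4 libraries, WT-1 and WT-2 came from WT mice and cKO-1 and cKO-2 from Trim25 cKO mice (conditional knockout; Trim25 is a ubiquitin ligase), and all 4 carried the same tumour line. The study's title places the loss of Trim25 in T cells; neither the allele nor the Cre driver is given in the sources used here, and no host strain is named. The labels state colon as the source and a colorectal tumour cell line as the cell type, although the design text describes sorted leukocytes. No source used here states whether 1 animal or several stand behind a group. Variation between the libraries of a group could therefore be purely technical, and the p-values below cannot be read as variation among animals. If 1 animal stands behind each group, genotype cannot be told apart from animal.

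Glycolysis splits glucose into pyruvate and yields ATP without oxygen. Cells with little oxygen, and activated or dividing leukocytes, rely on it and turn pyruvate into lactate, which they export. The hypoxia-inducible factor (HIF) links both gene groups: prolyl hydroxylases use oxygen to mark its alpha subunit for degradation, and when oxygen is short the subunit persists, enters the nucleus and activates genes that hold the motif ACGTG or GCGTG near their start. Its targets include the glucose transporters, most glycolytic enzymes, the angiogenic factor Vegfa, the mitophagy receptors Bnip3 and Bnip3l, and the hydroxylase Egln3, which feeds back on the factor. In solid tumours such genes are known to mark regions far from blood vessels, and neutrophils are known for a metabolism that rests largely on glycolysis.

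The promoters of 5 of the genes are printed here because the results turn on these genes. They are the 250 bases before the transcription start in RefSeq (GRCm38.p6), 5′ to 3′ on the gene's strand, with each match to ACGTG or GCGTG on either strand in capitals. On the opposite strand these read CACGT and CACGC, and the palindrome CACGTG counts on both strands.
Ero1l (listed as Ero1a; chr14:45318573-45318822, minus strand): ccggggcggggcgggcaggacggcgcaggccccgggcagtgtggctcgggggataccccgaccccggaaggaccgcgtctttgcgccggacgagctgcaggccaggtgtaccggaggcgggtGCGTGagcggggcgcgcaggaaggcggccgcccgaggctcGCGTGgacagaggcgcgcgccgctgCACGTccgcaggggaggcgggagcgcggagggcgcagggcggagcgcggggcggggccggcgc
Bnip3 (chr7:138909507-138909756, minus strand): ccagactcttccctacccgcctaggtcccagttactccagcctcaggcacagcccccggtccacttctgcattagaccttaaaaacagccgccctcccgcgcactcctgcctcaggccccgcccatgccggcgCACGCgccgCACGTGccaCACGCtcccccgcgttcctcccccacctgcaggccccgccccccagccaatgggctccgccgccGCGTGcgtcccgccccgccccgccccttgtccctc
Ldha (first listed start; chr7:46845554-46845803, plus strand): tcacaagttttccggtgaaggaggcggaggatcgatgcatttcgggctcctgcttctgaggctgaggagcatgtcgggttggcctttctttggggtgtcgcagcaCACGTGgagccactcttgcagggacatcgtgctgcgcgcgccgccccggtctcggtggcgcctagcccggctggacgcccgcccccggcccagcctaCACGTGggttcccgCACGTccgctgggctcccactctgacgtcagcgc
Hilpda (second listed start; chr6:29272376-29272625, plus strand): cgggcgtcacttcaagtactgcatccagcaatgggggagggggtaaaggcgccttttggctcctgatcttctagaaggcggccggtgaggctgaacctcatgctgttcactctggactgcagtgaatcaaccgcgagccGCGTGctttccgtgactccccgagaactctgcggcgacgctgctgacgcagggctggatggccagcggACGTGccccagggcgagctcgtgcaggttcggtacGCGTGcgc
Mif (chr10:75860278-75860527, minus strand): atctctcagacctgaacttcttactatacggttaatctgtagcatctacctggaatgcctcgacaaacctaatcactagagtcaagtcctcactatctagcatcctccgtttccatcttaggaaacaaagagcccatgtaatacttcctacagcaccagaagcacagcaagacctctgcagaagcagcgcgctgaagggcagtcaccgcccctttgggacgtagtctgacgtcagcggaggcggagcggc
Ero1l held 3 matches, Bnip3 held 5 with 1 CACGTG, Ldha held 5 with 2 CACGTG, and the second listed start of Hilpda held 3 while its first start held 0. Mif held 0 matches. Promoters were listed for 34 of the 37 genes, and 25 of these 34 (73.5%) held a match before their first listed start. Over every listed start of the 37 genes, 38 of 48 (79.2%) held a match, against 38.6% of all 32851 listed starts of the mouse genome. At least 3 matches were present in 9 of 34 first starts (26.5%) and in 6.58% of all starts. Base composition differed as well: the median GC content was 62.8% over the genes' starts and 52.4% over all starts, and its part in the motif counts was not tested. A match describes letters only.

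Between 8205 and 12092 cells per library were kept, 39906 in all, with a median of 7795 to 10017 UMIs (unique molecular identifiers, counts of single RNA molecules) per cell. The libraries shared 42 to 59 cell barcodes in each pair. Cells were clustered without the 37 genes and without 80 other pathway genes, so the clusters were not drawn by them, and clusters were named from marker genes. UMIs were summed per library and class, and a level is given in CPM, UMIs divided by the total of that class times 1000000. The 6 main classes are CD8 T cells, CD4 conventional T cells, Treg cells, NK cells, monocytes and macrophages; the 5 minor ones are dendritic cells, neutrophils, B cells, gamma-delta T cells and a class low in Ptprc, the gene of CD45. This last class held some markers of tumour cells and fibroblasts: Ptprc stood at 71.8 to 130.4 CPM against 2147 to 2307 CPM in CD8 T cells, Rhox5 at 632 to 747 CPM and fibroblast markers at 1658 to 2215 CPM in sum, but the epithelial genes Krt18 and Krt19 had 0 UMIs. Its clusters were named by their fibroblast marker score, and the class is called CD45-negative below for its low Ptprc. Clusters t5 (777 cells), t8 (514 cells, with Lef1 and Ccr7 among its top genes) and t16 (192 cells) scored best for CD8 T cells but stayed unnamed. They entered no class, so the CD8 T class may not hold all CD8 T cells. Trim25 itself stood at 56.6 and 52.4 CPM in WT and 40.3 and 37.8 CPM in cKO CD8 T cells, without overlap. Where the deleted part of the gene lies is not given, and a 3′ tag outside it checks nothing, so these levels are no check of the labels.

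Across the 11 classes the 37 genes peaked in few places. The CD45-negative class had the highest mean level of 21 genes and neutrophils of 9, while B cells had the lowest of 18 and gamma-delta T cells the lowest of 7. For 21 of the 37 genes all 4 libraries of the top class lay above all 4 of the class next by mean. None of these counts was made over all genes, so they do not show the list to differ from other genes. The sum of the 37 genes, which the abundant enzymes dominate, was 10048 and 9539 CPM in the WT and 11944 and 11965 CPM in the cKO libraries of the CD45-negative class. Neutrophils reached 4929 and 5358 CPM in the WT and 7901 and 8360.1 CPM in the cKO libraries, and macrophages 5103 and 4746 CPM in the WT and 6396 and 5536 CPM in the cKO libraries. B cells lay lowest, at 2131 and 1913 CPM in the WT and 1936 and 1913 CPM in the cKO libraries.

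**Figure D1:**
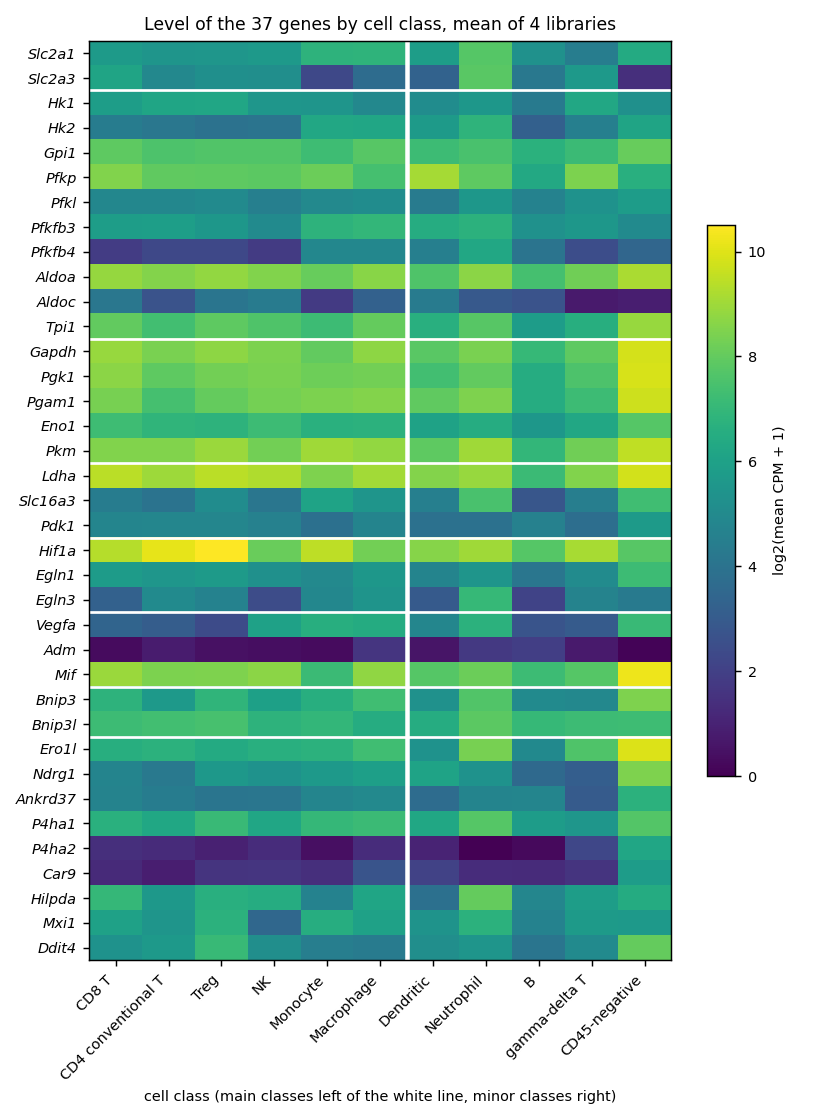
Level of each of the 37 genes (rows, grouped by role between white lines) in the 11 cell classes (columns, main classes left of the vertical line), as log2 of the mean CPM over 4 libraries plus 1. The CD45-negative column is brightest for lower glycolysis, Mif and Ero1l, and the B cell column is dark over most rows; colours compare classes within a row, not genes with each other.

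The glucose transporters were both highest in neutrophils, and differed elsewhere. Slc2a1, the widespread transporter, measured 159.9 and 168 CPM in WT and 233 and 297 CPM in cKO neutrophils. Macrophages came next at 113 ± 22.4 CPM (mean ± SD over 4 libraries here and below) with monocytes at 111 ± 13.8 CPM, a difference within their spread, and gamma-delta T cells were lowest at 20.99 ± 6.79 CPM. Slc2a3, a high-affinity transporter of neurons and leukocytes, measured 228 and 97.9 CPM in WT and 226 and 346 CPM in cKO neutrophils. Its next classes were CD8 T cells at 65.4 to 73.6 CPM and gamma-delta T cells at 51.1 ± 13.5 CPM, whereas macrophages held 12.1 ± 1.36 CPM, monocytes 3.89 ± 0.678 CPM and the CD45-negative class 1.69 ± 1.20 CPM. Every library of the CD8 T, CD4 conventional T, Treg and NK classes lay above every macrophage and monocyte library for Slc2a3, and below every one of them for Slc2a1.

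In upper glycolysis, from hexokinase to triose phosphate isomerase, isoforms of 1 step were highest in different classes. Hk1, the housekeeping hexokinase, was highest in gamma-delta T cells at 79.1 ± 8.06 CPM, which overlapped Treg cells at 73.3 ± 12.1 CPM. Hk2, the inducible hexokinase, was highest in neutrophils at 112 ± 26.9 CPM, followed by monocytes at 77.5 ± 12.7 CPM, macrophages at 74.5 ± 11.4 CPM and the CD45-negative class at 69.8 ± 8.69 CPM. CD8 T cells held 20.2 ± 1.69 CPM and Treg cells 14.6 ± 1.59 CPM of Hk2, below every library of those 4 classes. Pfkp, a phosphofructokinase isoform, was highest in dendritic cells at 459.5 to 605 CPM, above all libraries of CD8 T cells at 314 to 409.7 CPM. Pfkfb3 and Pfkfb4 make the sugar phosphate that activates phosphofructokinase. Pfkfb3 was highest in macrophages at 123 ± 15.5 CPM, within the spread of monocytes at 109 ± 12.2 CPM. Pfkfb4 was highest in neutrophils at 59.96 to 93.8 CPM, with monocytes at 25.98 to 32.2 CPM and CD8 T cells at 2.23 to 3.06 CPM. Aldoa, the main aldolase, was highest in the CD45-negative class at 509 to 631 CPM, above the 429 to 495 CPM of CD8 T cells.

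Lower glycolysis, which harvests ATP, was highest in the CD45-negative class for all 5 enzymes. Gapdh there measured 802 to 1082 CPM, against 403 to 586 CPM in CD8 T cells and 115 to 145 CPM in B cells. Pgk1, the first ATP-forming step, measured 724 to 1161 CPM against 366 to 443 CPM and 81.1 to 104 CPM in the same classes. Eno1 followed the same order, at 198 to 227 CPM, 141 to 164 CPM and 38.2 to 56.5 CPM. Its near-identical copy Eno1b had 0 UMIs, and reads of the 2 genes may not be told apart. Pkm, pyruvate kinase, reached 589 to 822 CPM in the CD45-negative class and overlapped monocytes at 445 to 594 CPM. Ldha, which turns pyruvate into lactate, measured 795 to 1002 CPM in the CD45-negative class, 635 to 734 CPM in CD8 T cells and 121 to 157 CPM in B cells. Slc16a3, the lactate exporter of glycolytic cells, was highest in neutrophils at 141 to 236 CPM and overlapped the CD45-negative class at 140.3 to 184 CPM. Pdk1, the kinase that closes the entry of pyruvate into mitochondria, was highest in the CD45-negative class at 47.7 to 54.8 CPM.

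Hif1a, the oxygen-regulated subunit, had an order unlike that of its targets. It was highest in Treg cells at 1368 to 1632 CPM, then in CD4 conventional T cells at 931 to 1284 CPM, and the CD45-negative class was among its lowest at 175 to 299 CPM, with B cells at 187 to 246 CPM. The factor is controlled mainly as a protein, which was not measured. Egln3 was highest in neutrophils at 39.98 to 256 CPM, a range that overlapped macrophages at 28.2 to 53.9 CPM. Among secreted factors, Vegfa was highest in the CD45-negative class at 138 ± 39.6 CPM and neutrophils at 107 ± 53.8 CPM, which did not differ beyond their spread, then in monocytes at 94.1 ± 43.7 CPM and macrophages at 87.7 ± 27.2 CPM. NK cells held 64.1 ± 18.4 CPM of Vegfa, while CD8 T cells held 9.38 ± 2.69 CPM and Treg cells 4.32 ± 0.251 CPM. Mif, a cytokine kept in most cells, measured 1088 to 1317 CPM in the CD45-negative class, above the 442 to 567 CPM of CD8 T cells. Adm, a vasodilator peptide, was near 0 in every class and reached at most 5.46 CPM, in B cells of cKO-1.

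The mitophagy receptor Bnip3 was highest in the CD45-negative class at 252 to 436 CPM, overlapping neutrophils at 95.9 to 404 CPM, and stood at 129.6 to 198 CPM in macrophages. Ero1l, the oxidase that drives disulphide bond formation in the endoplasmic reticulum, measured 716 to 1286 CPM in the CD45-negative class, 79.95 to 563 CPM in neutrophils and 169 to 218 CPM in gamma-delta T cells. Ndrg1, a stress-induced growth regulator, and Car9, a cell-surface carbonic anhydrase widely used as a hypoxia marker, were highest in the CD45-negative class, at 246 to 475 CPM and 40.4 to 75.1 CPM. Car9 did not exceed 7.33 CPM in the libraries of any main class. Hilpda, a lipid droplet protein that slows fat breakdown, was highest in neutrophils at 159.9 to 441 CPM and overlapped CD8 T cells at 87.2 to 178 CPM. Ddit4, a stress-induced inhibitor of mTOR, stood at 193 to 312 CPM in the CD45-negative class and 109 to 162 CPM in Treg cells, its next class.

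**Figure D2:**
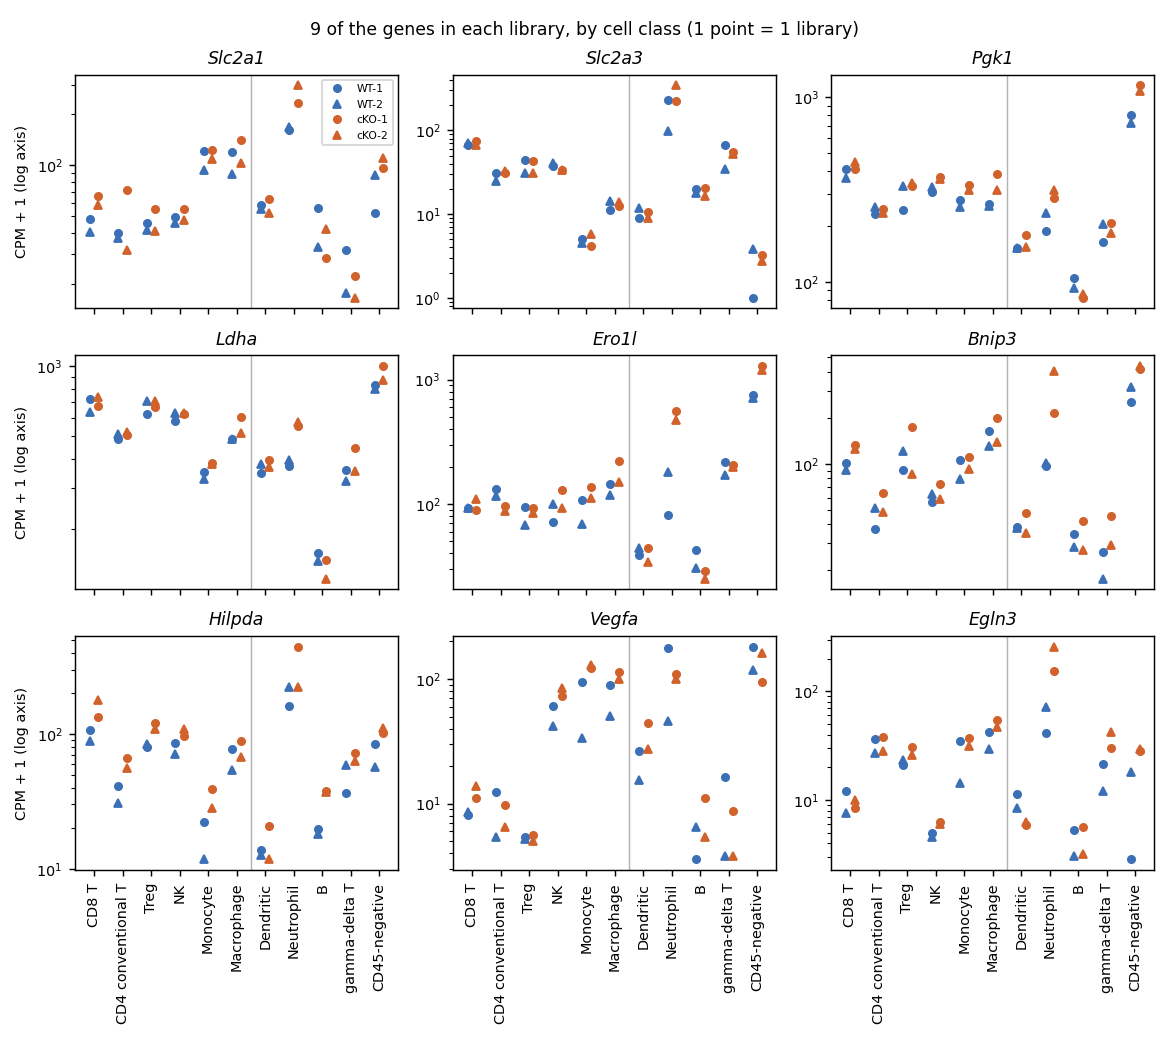
Levels of 9 of the genes (CPM plus 1, log axis) in each class, with 1 point per library (blue WT, orange cKO; circles library 1, triangles library 2); the grey line parts main from minor classes. Slc2a3 and Slc2a1 peak in neutrophils, Pgk1, Ldha and Ero1l in the CD45-negative class, and neutrophil Ero1l is 79.95 and 179 CPM in WT against 563 and 469.9 CPM in cKO.

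Each minor class was tested against the mean of the 6 main classes with edgeR's quasi-likelihood test on the summed UMIs, with the library as a block; p-values were adjusted by Benjamini-Hochberg across the 13310 genes that entered. A gene is said to rise or fall where its adjusted p was under 0.05. Differences are log2 ± SE. The fit also held patrolling monocytes, plasmacytoid dendritic cells and mast cells or basophils, and estimated the spread over all classes together. Its p-values rest on what remains of the class sums after the library block, and a small class is taken to vary like a large one. The classes also differ in UMIs per cell, with a median of 2618 in the neutrophil cluster, 3241 in the B cell cluster and 5127 in the gamma-delta T cluster, against 11519 and 13257 in the largest monocyte and macrophage clusters. The CD45-negative class pools cluster c22 with 506 cells and a median of 1037 UMIs, and c28 with 289 cells and a median of 40709. Its levels come mainly from c28, which held 467273 of 544504 UMIs in WT-1, from 22 cells, and 7394713 of 8160524 in cKO-1. The medians of c22 and c28 both lie outside 1500 to 6000 UMIs. Counts that moved by over 1.5 times when only cells of 1500 to 6000 UMIs were summed are given beside the class.

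Neutrophils stood above the main classes in both glucose transporters, the lactate exporter Slc16a3 and several HIF targets, while of the 5 lower glycolysis enzymes Pkm rose and Pgk1 and Eno1 fell. Of the 37 genes 16 rose and 5 fell, against 17.2% of all genes tested rising and 24.7% falling. The median of the 37 was 0.23 (0.27 over the 35 genes with more than 3 UMIs), and that of all genes was -0.38, and this median depends on scaling: with another set of size factors (RLE) 2754 genes rose and 1956 fell, against 2293 and 3288 here, and the all-gene median was -0.13.

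Both transporters rose in neutrophils: Slc2a3 by 3.11 ± 0.19, adjusted p = 2.55e-20, and Slc2a1 by 1.66 ± 0.16, adjusted p = 5.04e-13. Pfkfb4 rose by 3.52 ± 0.22, adjusted p = 2.83e-20, and Hk2 by 1.96 ± 0.19. The exporter Slc16a3 measured 179.9 and 141 CPM in WT and 236 and 165 CPM in cKO neutrophils and rose by 2.65 ± 0.17, adjusted p = 1.06e-19. Of the HIF targets, Egln3 rose by 2.64 ± 0.34, Vegfa by 2.13 ± 0.36, Hilpda by 2.05 ± 0.19, Ero1l by 1.49 ± 0.23 and Bnip3 by 0.84 ± 0.20. Aldoa (-0.01 ± 0.09), Gapdh (-0.17 ± 0.09), Ndrg1 (0.23 ± 0.40), Ddit4 (0.17 ± 0.26), Hk1 (-0.21 ± 0.19) and Pdk1 (-0.80 ± 0.36) did not pass. Pkm rose by 0.30 ± 0.09 and Pfkfb3 by 0.81 ± 0.18.

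The 5 falls in neutrophils were small: Eno1 fell by 0.41, Pgk1 by 0.35, Mif by 0.33, Hif1a by 0.30 and Ldha by 0.29, beside an all-gene median of -0.38. None of the 5 passed with RLE size factors, 0 to 2 fell without 1 library, and the sums over cells of 1500 to 6000 UMIs gave 25 rises and 0 falls. Against monocytes and macrophages alone, the nearest main classes, 10 of the 37 rose and 1 fell (9.99% and 21.8% of all genes). That background was 1330 genes higher and 2901 lower, against 1843 and 1176 with RLE factors and 1607 and 1814 without scaling factors. There Slc2a3 rose by 4.63 ± 0.22, adjusted p = 3.00e-25, Hilpda by 2.60 ± 0.20, Slc16a3 by 1.57 ± 0.16 and Ero1l by 1.07 ± 0.23, while Vegfa (0.06 ± 0.29), Hk2 (0.35 ± 0.17) and Bnip3 (0.25 ± 0.20) did not pass. The 1 fall, Pgk1 (-0.44 ± 0.14), was lost with RLE factors and without WT-1, WT-2 or cKO-1. Over cells of 1500 to 6000 UMIs this contrast had 17 rises and 0 falls. P4ha2 had 0 UMIs in neutrophils and Car9 had 2, too few for a fold.

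The CD45-negative class rose in most of the list. Here 25 genes rose and 7 fell, against 41.9% and 35.9% of all genes, with a median of 0.72 (0.77 over the 36 genes with more than 3 UMIs) beside 0.08 for all genes (0.33 with RLE factors). The share of higher calls among all genes depended on scaling: 6647 rose and 3895 fell with RLE factors and 6270 and 4177 without scaling factors, against 5573 and 4782. All 5 lower glycolysis enzymes and all 3 outlet genes rose, as did 7 of 9 other hypoxia targets. Pgk1 rose by 1.40 ± 0.07, adjusted p = 4.13e-25, Gapdh by 1.12 ± 0.06, Pkm by 0.64 ± 0.07, Eno1 by 0.63 ± 0.07, Ldha by 0.47 ± 0.08 and Aldoa by 0.40 ± 0.06.

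The largest rises were in other hypoxia targets. P4ha2, a subunit of collagen prolyl hydroxylase, measured 69.8 and 74.3 CPM in WT and 65.8 and 81.1 CPM in cKO libraries, against at most 2.29 CPM in a library of the main classes, and rose by 5.79 ± 0.16, adjusted p = 4.77e-35. Car9 rose by 4.72 ± 0.17, adjusted p = 1.35e-30, with 40.4 and 41.2 CPM in WT and 75.1 and 63.3 CPM in cKO libraries. Ndrg1 rose by 3.14 ± 0.11, Ero1l by 3.02 ± 0.12, Ddit4 by 2.49 ± 0.07, Vegfa by 2.29 ± 0.17, Slc16a3 by 2.26 ± 0.09, Bnip3 by 1.80 ± 0.09 and Mif by 1.62 ± 0.07. Isoforms parted in this class: Hk2 rose by 1.21 ± 0.09 and Hk1 fell by 0.61, Slc2a1 rose by 0.39 ± 0.10 and Slc2a3 fell by 3.46. The other falls were Aldoc (-3.48 ± 0.32), Pfkp, Pfkfb3 (-1.48 ± 0.12), Hif1a (-1.76 ± 0.10) and Adm. Adm rests on 2 UMIs, a ratio of 0.209 to the main classes with a 95% counting interval of 0.0253 to 0.755, and was lost without WT-2 or cKO-2. Over cells of 1500 to 6000 UMIs the class had 3 falls in place of 7, and the falls of Aldoc (-1.35, adjusted p = 0.27) and Slc2a3 (-1.50, adjusted p = 0.055) did not pass. Hilpda (0.20 ± 0.13) and Egln3 (0.19 ± 0.25), strong in neutrophils, did not pass here.

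B cells stood lowest. Of the 37 genes 29 fell and 2 rose, against 29.6% and 24.9% of all genes, with a median of -1.41 beside -0.10 (all-gene median 0.04 with RLE factors). Every enzyme of lower glycolysis fell, as did all 3 HIF pathway genes. Ldha measured 157 and 144 CPM in WT and 147 and 121 CPM in cKO B cells and fell by 2.01 (adjusted p = 2.75e-24); no main-class library was below 327 CPM. Pgk1 fell by 1.84, Pkm by 1.77, Gapdh by 1.54, Eno1 by 1.41 and Aldoa by 1.25. Slc16a3 (-2.32 ± 0.26), Egln3 (-2.53 ± 0.54) and Vegfa (-2.10 ± 0.46) fell most among genes with more than 3 UMIs. P4ha2 had 1 UMI in B cells, a ratio of 0.151 with an interval of 0.00382 to 0.840, and its fall was lost without WT-2, cKO-1 or cKO-2. With doublets kept, Slc16a3 stood at -1.45 and Vegfa at -1.35. Hif1a (-1.63 ± 0.11), Ero1l (-1.85 ± 0.26), Bnip3 (-1.58 ± 0.18), Hilpda (-1.36 ± 0.22), Ddit4 (-1.41 ± 0.19), Mif (-1.28 ± 0.10), Hk1 (-1.47 ± 0.13), Hk2 (-1.78 ± 0.22) and Slc2a1 (-0.77 ± 0.15) also fell.

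The 2 rises in B cells were Pfkfb4 (1.19 ± 0.20, adjusted p = 1.46e-06) and Adm (2.48 ± 0.65, adjusted p = 9.63e-04). Pfkfb4 measured 11.1 and 18.4 CPM in WT and 18.7 and 13.2 CPM in cKO B cells, above every library of the CD8 T, CD4 conventional T, Treg and NK classes and below every monocyte and macrophage library. Adm rests on 15 UMIs and did not pass the count filter without cKO-1. Against the T and NK classes alone, 27 genes fell and 3 rose (29.3% and 25.3% of all genes), with Pfkfb4, Adm and Ankrd37, a small ankyrin repeat gene induced by hypoxia, the 3 that rose, Pfkfb4 by 2.33 ± 0.23 and Ankrd37 by 0.47 ± 0.20. The rise of Ankrd37 was lost without WT-1 (adjusted p = 0.11), WT-2 (0.32) or cKO-1 (0.051). Slc2a3, which did not pass against all main classes (-0.39 ± 0.22), fell by 1.15 against the lymphoid ones.

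Dendritic cells were lower in most of the genes and higher in 7, led by Pfkfb4 and Pfkp. Of the 37 genes 25 fell and 7 rose, against 31.6% and 29.2% of all genes, and the median was -0.53 beside -0.06. All 5 lower glycolysis enzymes fell: Pgk1 by 0.95 (adjusted p = 2.65e-15), Eno1 by 0.85, Pkm by 0.74, Gapdh by 0.68 and Pgam1 by 0.23. The largest falls were in HIF targets. Hilpda measured 12.7 and 11.6 CPM in WT and 19.6 and 10.9 CPM in cKO dendritic cells and fell by 2.27, Ero1l fell by 1.38, Egln3 by 1.31, Slc2a3 by 1.26 and Bnip3 by 1.22. Pfkp measured 541 and 459.5 CPM in WT and 605 and 590.3 CPM in cKO dendritic cells and rose by 1.17 ± 0.07, adjusted p = 1.71e-21. The other large rises were Pfkfb4 (1.79 ± 0.12), Aldoc (1.12 ± 0.12) and Hk2 (0.94 ± 0.08), followed by Ndrg1 (0.89 ± 0.12), Car9 (0.89 ± 0.24) and Pfkfb3 (0.53 ± 0.07).

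Pfkfb4, Pfkfb3 and Hk2, which rose against the 6 main classes, fell against the nearest ones. Against monocytes and macrophages, 29 of the 37 fell and 3 rose in dendritic cells (26.7% and 25.7% of all genes; 3424 higher and 3559 lower, against 4805 and 2632 without scaling factors). Pfkfb4 (-0.49 ± 0.11), Pfkfb3 (-0.50 ± 0.08) and Hk2 (-0.67 ± 0.08) fell, whereas Pfkp (1.20 ± 0.08), Aldoc (1.97 ± 0.14) and Ddit4 (0.65 ± 0.09) rose. The fall of Pfkfb4 was lost with the members among the clustering genes (-0.21, adjusted p = 0.18) and over cells of 1500 to 6000 UMIs (-0.35, adjusted p = 0.36). Egln3 (-2.38 ± 0.26), Vegfa (-1.86 ± 0.15), Bnip3 (-1.80 ± 0.12), Ero1l (-1.80 ± 0.17) and Slc16a3 (-1.44 ± 0.10) were lower than in monocytes and macrophages. Over cells of 1500 to 6000 UMIs, 12 genes fell against the 6 main classes in place of 25.

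Gamma-delta T cells, sampled with 36 to 129 cells per library, were low in most enzymes. Of the 37 genes 22 fell and 3 rose, against 15.6% and 12.1% of all genes, with a median of -0.66 (-0.68 over the 34 genes with more than 3 UMIs) beside -0.17. With RLE factors 2080 of all genes rose and 1371 fell and without scaling factors 2401 and 1085, against 1610 and 2071 here. All 5 lower glycolysis enzymes fell, among them Gapdh by 0.85 (adjusted p = 3.12e-11), Pgk1 by 0.96 and Ldha by 0.81. Slc2a1 measured 30.5 and 16.6 CPM in WT and 21.3 and 15.6 CPM in cKO gamma-delta T cells and fell by 1.96, and Bnip3 fell by 1.86. Ndrg1 fell by 2.21 and Vegfa by 2.37, the latter lost without cKO-2 (adjusted p = 0.15). With doublets kept, Slc2a1 (-0.18, adjusted p = 0.52) and Vegfa (-0.06, adjusted p = 0.97) did not pass and Ndrg1 stood at -1.04. Over cells of 1500 to 6000 UMIs Ndrg1 (-1.18, adjusted p = 0.079) and Vegfa (-0.93, adjusted p = 0.33) did not pass. Aldoc had 2 UMIs, a ratio of 0.0978 with an interval of 0.0118 to 0.353.

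Slc2a3, Ero1l and Hk1 were the 3 rises of gamma-delta T cells. Slc2a3 measured 66.04 and 33.3 CPM in WT and 54.2 and 50.9 CPM in cKO libraries and rose by 0.96 ± 0.26, adjusted p = 0.00276. With doublets kept it did not pass (0.58, adjusted p = 0.072), nor did it against the other T and NK classes (0.20 ± 0.24). Ero1l measured 218 and 169 CPM in WT and 205 and 198 CPM in cKO libraries, above every library of the CD8 T, CD4 conventional T, Treg and NK classes, which reached at most 130.2 CPM. It rose by 0.62 ± 0.23, adjusted p = 0.0341 against the main classes and by 0.84 ± 0.24, adjusted p = 0.00603 against the T and NK classes. The rises of Ero1l and Hk1 (0.46 ± 0.13) were lost without cKO-2 (adjusted p = 0.14 and 0.088), and that of Hk1 also with doublets kept (0.20, adjusted p = 0.22) and over cells of 1500 to 6000 UMIs (0.46, adjusted p = 0.15). In the lineage contrast 21 of the 37 fell and 1 rose (12.9% and 9.61% of all genes), and the rise, Ero1l, was lost without cKO-2. Over cells of 1500 to 6000 UMIs 11 fell. With RLE factors 1589 genes rose and 1192 fell there and without scaling factors 1682 and 1074, against 1279 and 1711.

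**Figure D3:**
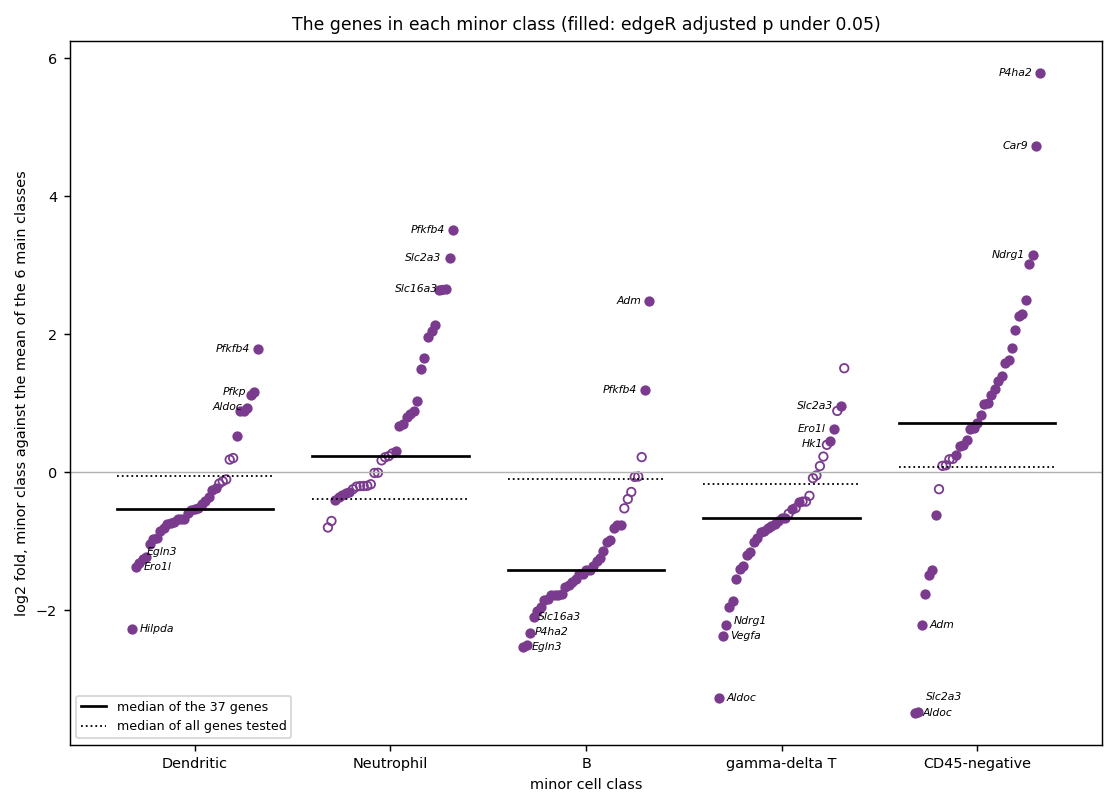
Log2 difference of each of the 37 genes between a minor class and the mean of the 6 main classes (edgeR, 4 libraries), with genes in rising order; filled points passed an adjusted p of 0.05, the solid bar is the median of the 37 genes and the dotted bar that of all genes. Some genes of each end are labelled, P4ha2 in neutrophils (0 UMIs) is left out, and P4ha2 in B cells, Aldoc in gamma-delta T cells and Adm in the CD45-negative class rest on 1 or 2 UMIs; the medians run from -1.41 in B cells to 0.72 in the CD45-negative class.

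Within macrophages and monocytes the genes were unevenly spread over clusters. Clusters are described here without a test, since the cells were grouped by their own expression, although without these 37 genes. Cluster c20, with 616 cells, held 7.67% and 6.15% of WT and 10.6% and 8.07% of cKO macrophages. Against c0, the largest macrophage cluster with 3983 cells, 33 of the 37 genes were higher in c20 in all 4 libraries and 2 (Pfkfb4 and Car9) lower in all 4, with a median ratio of 2.84. The same count was not made over all genes, so it does not set the list apart from other genes. The sum of the 37 genes was 13560.5 and 11196 CPM in the WT and 14178 and 14154 CPM in the cKO libraries of c20, against 3842 and 3733 CPM in the WT and 4541 and 4335 CPM in the cKO libraries of c0. The median UMI count per cell was 10683 in c20 and 13257 in c0.

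Hilpda, Egln3, Ndrg1 and Ero1l had the largest ratios. Hilpda in c20 measured 629.5 and 433 CPM in WT and 478 and 479.7 CPM in cKO libraries, against 15.5 to 26.01 CPM in c0, a mean ratio of 24.97. Ero1l measured 657 to 976 CPM against 70.1 to 108 CPM, Bnip3 525 to 748 CPM against 78.9 to 111 CPM, and Egln3 231 to 378 CPM against 12.4 to 17.4 CPM. Ratios were 14.96 for Ndrg1, 6.92 for Vegfa and 6.13 for Slc2a1, but 2.15 for Gapdh, 2.19 for Ldha and 1.93 for Hif1a. No library of c0 reached c20 in any of these 10 genes.

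A different pattern appeared in c5, a macrophage cluster of 1989 cells with a median of 2128 UMIs. Of the enzymes, Aldoa, Aldoc, Tpi1, Gapdh, Eno1, Pkm and Ldha were higher in c5 than in c20 in all 4 libraries, with Gapdh at 1082 to 1536 CPM against 549 to 808 CPM and Ldha at 954 to 1188 CPM against 855 to 987 CPM. Other genes lay far lower in c5 than in c20: Vegfa stood at 9.99 to 23.04 CPM, Egln3 at 8.33 to 17.9 CPM and Ero1l at 86.6 to 179.9 CPM. Depth and profile moved together in this cluster, and the part of depth was not tested. In monocytes, c13 (1215 cells) exceeded c1, the largest monocyte cluster, in 30 of the 37 genes in all 4 libraries, with a median ratio of 1.41. That count was likewise not made over all genes. Hilpda (ratio 3.73), Egln3 (2.98), Vegfa (2.75), Ndrg1 (2.74) and Ero1l (2.19) had the largest ratios beside the sparse P4ha2 (3.26). Cluster c13 made up 13.7% and 10.3% of WT and 28.8% and 22% of cKO monocytes; these shares were not tested.

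**Figure D4:**
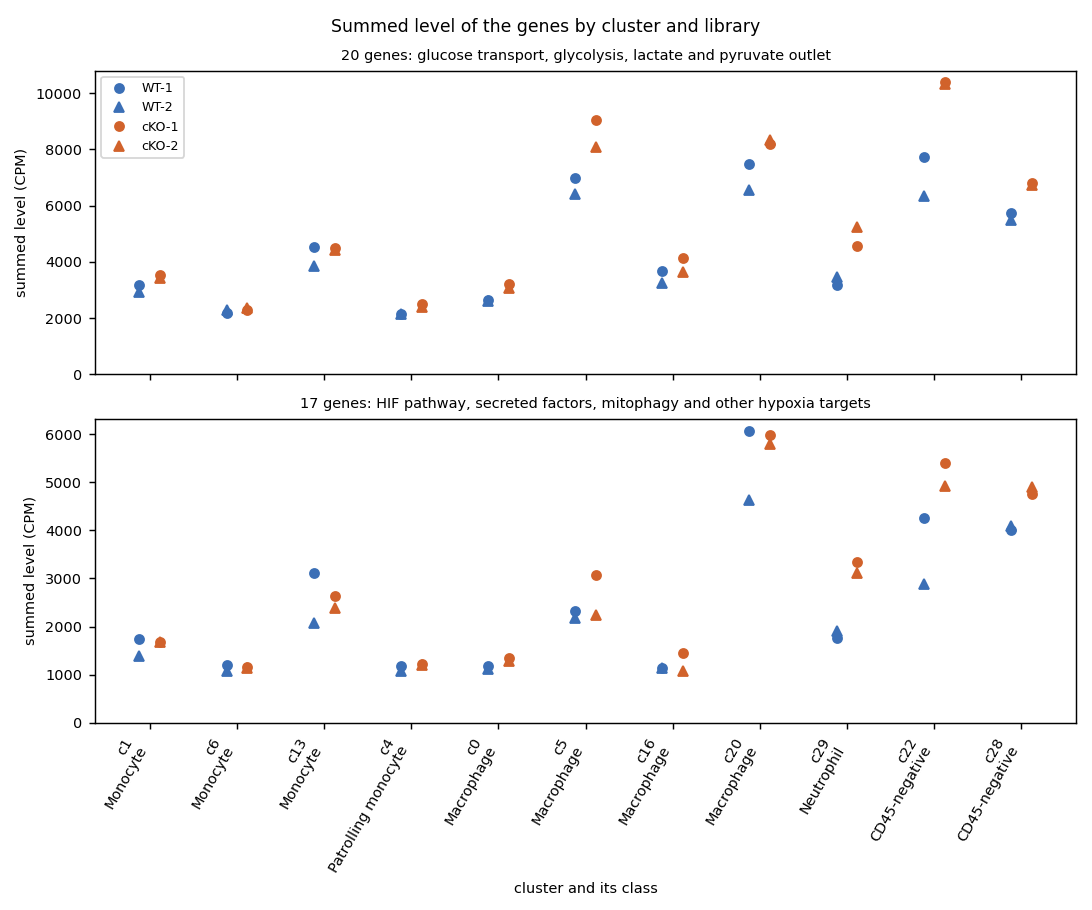
Summed level (CPM) of the 20 transport, glycolysis and outlet genes (top) and of the other 17 genes (bottom) in each myeloid and CD45-negative cluster, 1 point per library, with axes from 0. Clusters c5, c20 and c22 are the highest in the top panel, and c20 is the highest of the macrophage clusters c0, c5, c16 and c20 in the bottom panel.

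Between genotypes, no gene of the 37 passed an adjusted p of 0.05 in any of the 11 classes, while in 10 of the 11 more genes lay above 0 than below. The share of all genes passing was 0.0887% for CD8 T, 0.24% for CD4 conventional T, 0.0744% for Treg and 0.0815% for B cells, and 0.0% in NK cells, monocytes, macrophages, dendritic cells, neutrophils, gamma-delta T cells and the CD45-negative class, so a count of 0 lies at the background. With DESeq2 the list had 1 gene past the threshold in CD8 T cells, 1 in neutrophils and 2 in the CD45-negative class, and 0 in the others. Of all genes to which DESeq2 gave an adjusted p, 0.439%, 0.386% and 0.786% passed in these 3 classes. In the others it was 0.126% in CD4 conventional T cells, 0.0213% in Treg cells, 0.116% in NK cells, 0.6% in monocytes, 0.105% in macrophages and in dendritic cells, 0.209% in B cells and 0.0166% in gamma-delta T cells. In simulated data of the same depth edgeR recovered 92% of 2-fold changes (log2 of 1) in CD8 T cells and 97% in neutrophils. The simulation gave every gene the same preset spread between libraries and changed only genes with enough expected UMIs. It therefore does not give the share of real 2-fold changes that would be found in these libraries.

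The genes' differences lay mainly above 0. In macrophages 34 of 37 genes tested were higher in cKO with a median of 0.26, in monocytes 32 of 35 (0.21), in NK cells 31 of 36 (0.18), in CD8 T cells 27 of 35 (0.19), in Treg cells 20 of 32 (0.13) and 21 of 32 (0.07) for CD4 conventional T. Among minor classes the counts were 29 of 31 in neutrophils (0.63), 28 of 34 in the CD45-negative class (0.28), 24 of 27 in gamma-delta T cells (0.24), 28 of 36 in dendritic cells (0.09) and 11 of 30 in B cells (-0.05). The dendritic class pools subsets that lay on different sides, with 13 of 33 above 0 in cDC1 (-0.07), 26 of 35 in cDC2 (0.15) and 25 of 30 in migratory dendritic cells (0.13). The all-gene median was -0.03 in neutrophils and within 0.01 of 0 in the other 10 classes. An unadjusted p under 0.05 was found upward for 15 genes in macrophages, 14 in the CD45-negative class, 13 in neutrophils, 12 in monocytes, 8 in CD8 T cells, 8 in NK cells, 7 in dendritic cells, 6 in gamma-delta T cells, 4 in Treg cells, 1 in B cells and 3 in the CD4 conventional T class. Downward it was found for 2 in dendritic cells, 1 in B cells and 1 in the CD4 conventional T class. Between 4.49% and 8.15% of all genes had such a p. With DESeq2 the upward counts were 12 in macrophages, 11 in the CD45-negative class, 9 in monocytes, 8 in neutrophils, 7 in NK cells, 6 in CD8 T cells, 4 in dendritic cells, 3 in Treg cells, 2 in the CD4 conventional T class, 2 in gamma-delta T cells and 1 in B cells; downward they were 1 in dendritic cells and 0 in the other 10 classes. The genes share regulators and libraries, so they are not independent.

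These counts moved with single libraries and with the choice of cells; upward counts here are genes with an unadjusted p under 0.05. Macrophages had 25 of 36 (median 0.13, 6 upward) with the members among the clustering genes, 32 of 37 (median 0.16, 6 upward) without cKO-1 and 34 of 37 (median 0.39, 20 upward) without cKO-2. Monocytes had 22 of 36 (median 0.10, 10 upward) without WT-2 and 34 of 36 (median 0.34, 18 upward) without WT-1. Their counts were 32 of 36 (median 0.20, 6 upward) without cKO-1, 28 of 35 (median 0.23, 7 upward) without cKO-2, 34 of 37 (median 0.37, 19 upward) with the members among the clustering genes and 21 of 32 (median 0.17, 5 upward) over cells of 1500 to 6000 UMIs. In both classes more genes lay above 0 than below under each of these settings.

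For CD8 T cells the counts were 21 of 36 (median 0.10, 4 upward) without cKO-2 and 18 of 25 (median 0.32, 6 upward) over cells of 1500 to 6000 UMIs. NK cells had 28 of 36 (median 0.11, 3 upward) without cKO-1 and 16 of 29 (median 0.11, 3 upward) over those cells. The 2 CD4 classes came close to 0 without 1 library: conventional T cells had 17 of 32 (median 0.01, 3 upward) without cKO-1 and 21 of 32 (median 0.12, 3 upward) without cKO-2. Treg cells had 17 of 32 (median 0.02, 2 upward) without WT-1, 17 of 32 (median 0.04, 2 upward) without cKO-1, 23 of 32 (median 0.21, 3 upward) without cKO-2 and 16 of 28 (median 0.03, 1 upward) over cells of 1500 to 6000 UMIs. Over the same cells gamma-delta T cells were evenly split, at 8 of 16 (median 0.01, 0 upward), and had 20 of 27 (median 0.14, 2 upward) without cKO-1 and 19 of 28 (median 0.38, 5 upward) without WT-2.

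Neutrophils had 20 of 25 (median 0.28, 3 upward) over cells of 1500 to 6000 UMIs and 31 of 32 (median 0.57, 7 upward) without cKO-2. The CD45-negative class had 18 of 20 (median 0.54, 7 upward) over those cells and 26 of 34 (median 0.29, 9 upward) without WT-2. Dendritic cells had 24 of 36 (median 0.03, 2 upward) without cKO-1, 28 of 36 (median 0.18, 6 upward) without cKO-2, 23 of 36 (median 0.10, 4 upward) without WT-2 and 21 of 29 (median 0.22, 5 upward) over cells of 1500 to 6000 UMIs. The median in B cells changed sign, with 18 of 29 (median 0.07, 1 upward) at Leiden resolution 2 and 15 of 29 (median 0.03, 1 upward) over cells of 1500 to 6000 UMIs.

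**Figure D5:**
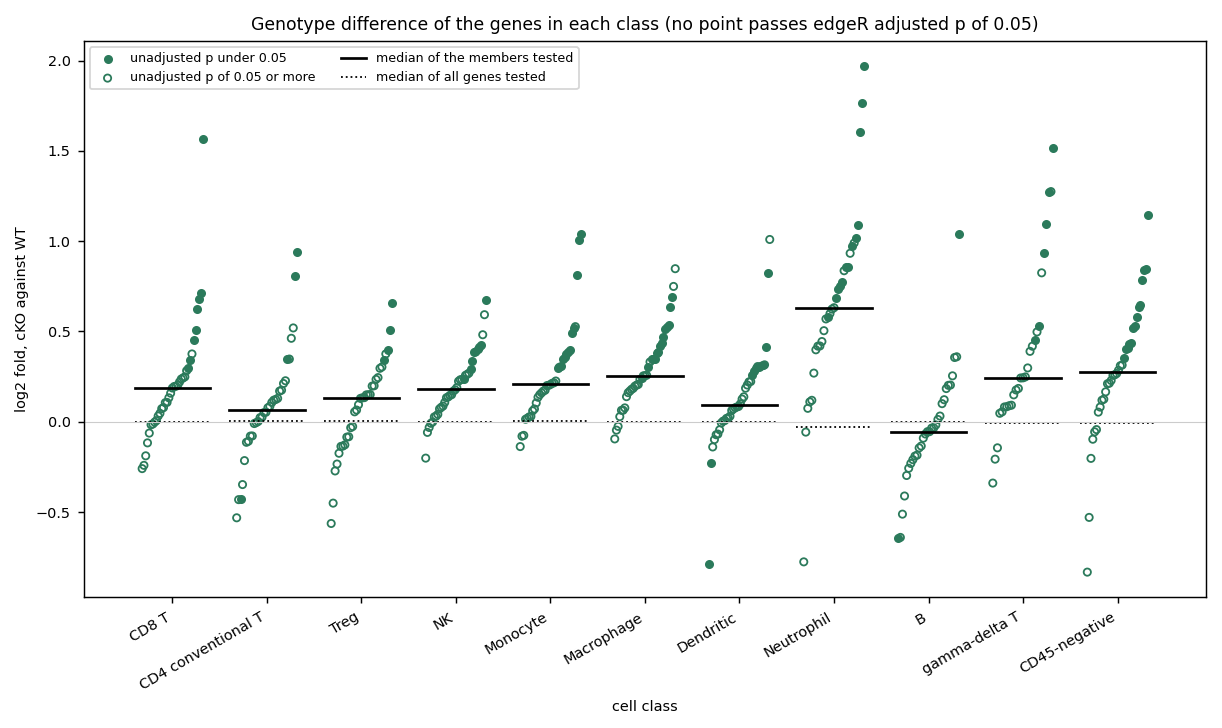
Log2 difference between cKO and WT of each of the 37 genes that passed the count filter, by class (edgeR, 2 against 2 libraries), in rising order; filled points had an unadjusted p under 0.05, and no point passed the adjusted threshold. Solid bars are the genes' medians, from -0.05 in B cells to 0.63 in neutrophils, and dotted bars those of all genes.

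In macrophages, Pkm measured 376 and 382 CPM in WT and 541 and 485 CPM in cKO libraries, and Pgk1 265 and 257 CPM and 382 and 315 CPM. Both genes were higher in each cKO library than in each WT library, with log2 differences of 0.44 ± 0.10, adjusted p = 0.832, and 0.42 ± 0.11, adjusted p = 0.933. Without c20, whose share was also larger in cKO, the median of the 37 was 0.24 with 31 of 37 above 0. Vegfa was the 1 gene past the threshold inside a macrophage cluster: in c0 it measured 48.4 and 35.7 CPM in WT and 77.4 and 83.5 CPM in cKO libraries (log2 0.94 ± 0.13, adjusted p = 0.0442; 0.0394% of all genes passed there). In monocytes, Hilpda measured 21.3 and 10.7 CPM in WT and 38.2 and 27.03 CPM in cKO libraries (1.04 ± 0.27, adjusted p = 0.737), and Vegfa 94.3 and 32.3 CPM and 122 and 128 CPM (1.01 ± 0.35, adjusted p = 1). Both were lowest in WT-2. Without c13 the median in monocytes was 0.14, with 28 of 35 above 0 and 7 upward at an unadjusted p under 0.05. Within the monocyte clusters the median was 0.19 in c1 (29 of 35 above 0), 0.04 in c6 (20 of 33) and 0.04 in c13 (20 of 34).

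Among lymphocytes, Hilpda had the largest difference in CD8 T cells apart from the sparse Car9. It measured 106 and 87.2 CPM in WT and 133 and 178 CPM in cKO CD8 T cells, without overlap (0.71 ± 0.15, adjusted p = 0.134). Slc2a1 measured 47.1 and 39.7 CPM and 64.6 and 57.04 CPM (0.51 ± 0.14, adjusted p = 0.219), and Bnip3 99.7 and 89.8 CPM and 131 and 125 CPM (0.45 ± 0.12, adjusted p = 0.217), also without overlap. In NK cells Vegfa measured 59.9 and 40.8 CPM in WT and 71.8 and 84.02 CPM in cKO (0.68 ± 0.15, adjusted p = 0.521). Hilpda was also above 0 in B cells (1.04 ± 0.27, adjusted p = 0.258), CD4 conventional T cells (0.81 ± 0.25, adjusted p = 0.303) and Treg cells (0.51 ± 0.18, adjusted p = 0.689). Ldha stood at 0.07 ± 0.12 for CD8 T, 0.05 ± 0.14 for CD4 conventional T and 0.06 ± 0.13 for Treg cells.

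In neutrophils, 51, 90, 96 and 34 cells per library gave the largest differences. Ero1l measured 79.95 and 179 CPM in WT and 563 and 469.9 CPM in cKO neutrophils (1.97 ± 0.36, adjusted p = 0.146, unadjusted p = 9.58e-05). Bnip3 measured 95.9 and 100.1 CPM and 213 and 404 CPM (1.60 ± 0.37, adjusted p = 0.277), and Egln3 39.98 and 70.3 CPM and 152 and 256 CPM (1.77 ± 0.42, adjusted p = 0.277). In all 3 genes the cKO libraries lay above the WT libraries. Ndrg1 (-0.78 ± 0.57) and Pfkfb3 (-0.06 ± 0.36) were the 2 below 0. The class's own make-up varied between the libraries: neutrophil markers summed to 25249 and 23609 CPM in WT and 35365 and 15484 CPM in cKO libraries, and monocyte markers to 5189 and 6923 CPM in WT and 2924 and 7503 CPM in cKO libraries. Fibroblast markers summed to 869 CPM in WT-2 and to 11.99 to 30.4 CPM in the others. The part of these in the differences was not tested.

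In the CD45-negative class Ero1l measured 757 and 716 CPM in WT and 1286 and 1200.1 CPM in cKO libraries (0.84 ± 0.13, adjusted p = 0.287). Pgk1 (0.65 ± 0.13, adjusted p = 0.59) and Bnip3 (0.63 ± 0.15, adjusted p = 0.632) likewise had both cKO libraries above both WT libraries. Its shallower cluster c22 (506 cells, median 1037 UMIs) held the other gene past the threshold: Hilpda, at 25.9 and 22.8 CPM in WT and 134 and 132 CPM in cKO libraries (2.52 ± 0.51, adjusted p = 0.0181; 0.553% of all genes passed). That call was lost without WT-2 (adjusted p = 0.19), without cKO-1 (0.075) and with DESeq2 (0.77). The cluster held 71.4% and 59.4% of the class's cells in WT and 65.1% and 60.7% in cKO libraries. Its sums were small, at 77231 and 219292 UMIs in WT and 765811 and 242557 UMIs in cKO libraries. The WT levels of Hilpda in c22 therefore rest on few UMIs.

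In gamma-delta T cells Tpi1 measured 60.96 and 61.03 CPM in WT and 139 and 125 CPM in cKO libraries (1.10 ± 0.29, adjusted p = 0.401), but turned to -0.66 over cells of 1500 to 6000 UMIs. Dendritic cells had Vegfa at 0.82 ± 0.29 and Egln3 at -0.79 ± 0.24, the latter below 0 where neutrophil and macrophage Egln3 lay above. Within the cDC2 subset, where 0 of 35 genes passed in edgeR beside 0.0173% of all genes (unadjusted p under 0.05 for 7 upward and 1 downward), the same 2 genes stood at 1.02 ± 0.26 and -0.94 ± 0.24. B cells had Pgk1 at -0.21 ± 0.17 and Pdk1 at -0.64 ± 0.31.

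Whether the genotype difference of a minor class differed from the mean difference of the 6 main classes was tested as an interaction on the same sums. This interaction test, unlike those within 1 class, estimated the spread over all classes together. Ero1l in neutrophils was the 1 gene of the 37 to pass there, at 1.65 ± 0.34, adjusted p = 0.0117, with 0.316% of all genes passing. It was lost without cKO-1 (1.55, adjusted p = 0.43) and over cells of 1500 to 6000 UMIs (0.96, adjusted p = 0.43). In the CD45-negative class 3 passed, Ero1l (0.76 ± 0.20, adjusted p = 0.0334), Pgk1 (0.58 ± 0.13, adjusted p = 0.0111) and Pgam1 (0.51 ± 0.12, adjusted p = 0.0163), beside 1.65% of all genes. The all-gene median there was 0.12, of 220 genes passing 177 were higher, and with RLE factors the split was 22 higher and 48 lower with a median of 0.01; the 3 genes then stood at 0.63, 0.44 and 0.37 and did not pass. Ero1l and Pgam1 were also lost without any 1 of the 4 libraries, and Pgk1 without WT-1, WT-2 or cKO-1. In dendritic cells, B cells and gamma-delta T cells 0 of the 37 passed in edgeR, against 0.0%, 0.0751% and 0.0% of all genes. An unadjusted p under 0.05 was found there for 3 downward in dendritic cells, 6 downward in B cells and 3 upward in gamma-delta T cells; DESeq2 was not run for this contrast.

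The 80 other pathway genes, of which 65 could be tested between classes, were read in the same fits. They comprise further enzymes and isoforms, regulators and outlets of glycolysis, HIF regulators and other hypoxia response genes. In the CD45-negative class 34 rose and 18 fell, in neutrophils 20 and 9, in dendritic cells 17 and 31, in B cells 18 and 25 and in gamma-delta T cells 7 and 15. Of all genes tested, the rising and falling shares were 41.9% and 35.9% in the CD45-negative class and 17.2% and 24.7% in neutrophils. They were 29.2% and 31.6% in dendritic cells, 24.9% and 29.6% in B cells and 12.1% and 15.6% in gamma-delta T cells. Of the hypoxia response genes outside the 37, 19 of 27 rose in the CD45-negative class (41.9% of all genes) and 10 of 27 in neutrophils (17.2%), and in B cells 7 of 12 HIF regulators rose (24.9%). Counts of the other groups of these genes are not given here. Between genotypes 0 of the 80 passed in edgeR in any of the 11 classes, with at most 7 upward and at most 3 downward at an unadjusted p under 0.05 in a class; DESeq2 also had 0, with at most 6 upward and at most 2 downward. Upp1, which splits uridine, passed in cluster c22 at 2.27 ± 0.55 (adjusted p = 0.0450), from 0 and 31.9 CPM in WT and 111 and 107 CPM in cKO libraries (0, 7, 85 and 26 UMIs). It was lost without WT-1 (adjusted p = 0.077), without cKO-1 (0.31) and with DESeq2 (0.999). In the interaction of the CD45-negative class, Higd1a and Fam162a, both mitochondrial hypoxia response genes, passed at 0.55 ± 0.12 (adjusted p = 0.00992) and 0.70 ± 0.15 (adjusted p = 0.0111), and Rora at -1.75 ± 0.44 (adjusted p = 0.0299). Fam162a measured 567 and 522 CPM in WT and 768 and 724 CPM in cKO libraries, Higd1a 338 and 365 CPM and 497 and 422 CPM, and Rora, a nuclear receptor, 7.35 and 23.7 CPM and 6.25 and 8.90 CPM, where the WT-2 library alone stood high. Higd1a and Fam162a were lost with RLE factors (adjusted p = 0.079 and 0.082) and without WT-1, WT-2 or cKO-1, and Rora turned to 0.18 without WT-2 and was lost without cKO-1.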

How the data were processed

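The authors deposited filtered UMI counts per gene and cell barcode for each of the 4 libraries (Chromium Single Cell 3′ v3), whole numbers with no normalization. The submitters' processing notes name Cell Ranger and STAR, without versions, and the build mm10. Barcodes below 300 genes or 500 UMIs or above 15% mitochondrial UMIs were dropped. Scrublet called 0 doublets by its own threshold. Cells scoring above 0.2 in it were clustered with the others and then set apart as mixed droplets. Clusters (Scanpy 1.11.5, 2000 variable genes, 30 components, 15 neighbours, Leiden resolution 1) used neither the 37 genes nor the 80 others, and T and NK clusters were clustered again. A class needed 20 cells in each library; unnamed clusters and mixed droplets entered no class. Summed counts were tested with edgeR 4.0.16 (quasi-likelihood, TMM, filterByExpr, Benjamini-Hochberg over all genes tested) and, between genotypes, DESeq2 1.42.0; SE is the log2 difference over the square root of F. Intervals cover counting error only. On simulated counts, edgeR recovered 92% of log2 changes of 1 in CD8 T cells (11250 genes) and 97% in neutrophils (4542 genes). Their spread was preset rather than taken from the libraries, and only genes with enough expected UMIs were changed.

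The members and lists were chosen with earlier results of these data known. Named genes were every member that passed between genotypes, the 4 largest rises and 4 largest falls of each minor class, and 24 fixed members; others named were chosen after their values were seen. With 2 libraries a group, exact permutation reaches p = 0.333 at the lowest. Alternatives were other size factors, no count filter, doublets kept, Leiden resolution 2, the members among the clustering genes, a replicate block, each library left out and, chosen after seeing the data, no scaling factors, cells of 1500 to 6000 UMIs, a crossed block and single clusters. Promoters came from RefSeq (GRCm38.p6).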

Additional observations from a re-analysis of the deposited data

Results flagged for a closer look

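Genes whose genotype difference in a minor class differed, in the interaction test with edgeR, from the mean difference of the 6 main classes were Ero1l in neutrophils (1.65) and Ero1l (0.76), Pgam1 (0.51) and Pgk1 (0.58) in the CD45-negative class, all on the log2 scale over 2 against 2 libraries. Both cKO libraries lay above both WT libraries in each case. The neutrophil value rests on 34 to 96 cells per library and did not pass without cKO-1 or over cells of 1500 to 6000 UMIs. The other 3 did not pass with RLE size factors or without scaling factors. Of these, Ero1l and Pgam1 were lost without any 1 of the 4 libraries, and Pgk1 without WT-1, WT-2 or cKO-1.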

How the results depend on the processing

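Of 432 alternative counts of genes past the threshold, 351 stayed within 1.5 times the count reported. For the interaction test the replicate block setting refits the same model, so its counts among the 351 could not differ. The share of all genes passing is not given here for the block settings, every gene with a count or 1 library left out. Counts under those settings therefore cannot be set against a background. Between genotypes, where 0 passed, the replicate block gave 4 in CD8 T cells and 3 in neutrophils, the crossed block 2 in CD8 T cells, 1 in NK cells, 5 in monocytes and 1 in the CD45-negative class. Testing every gene with a count gave 2 in CD8 T cells, 2 in NK cells, 4 in monocytes, 1 in dendritic cells, 3 in neutrophils and 6 in the CD45-negative class, and DESeq2 gave 1 in CD8 T cells, 1 in neutrophils and 2 in the CD45-negative class. The correlation of same-numbered libraries ran from -0.19 in monocytes to 0.15 in CD8 T cells, so the numbers were not shown to pair the samples. Leaving out 1 library gave 0 to 4 in CD8 T cells, 0 to 1 in Treg cells, 0 to 2 in NK cells, 0 to 5 in monocytes, 0 to 5 in macrophages, 0 to 1 in dendritic cells, 0 to 3 in neutrophils, 0 to 1 in gamma-delta T cells and 0 to 2 in the CD45-negative class; the lone library is then assumed to vary like the others.

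Against the 6 main classes, cells of 1500 to 6000 UMIs gave 12 falls in dendritic cells, 25 rises and 0 falls in neutrophils and 3 falls in the CD45-negative class. Neutrophil falls were 0 with RLE factors, every gene, doublets kept or Leiden resolution 2, 1 with the members among the clustering genes, and 0 to 2 without 1 library. B cell rises were 1 to 2 and gamma-delta T rises 1 to 3 without 1 library. Against the lineage, dendritic rises were 5 without scaling factors. Neutrophils had 17 rises over cells of 1500 to 6000 UMIs, 0 falls there and with RLE factors, no scaling factors, every gene, doublets kept or Leiden resolution 2, 9 falls with the members among the clustering genes, and 0 to 2 without 1 library. Gamma-delta T rises were 3 with RLE factors, 3 without scaling factors, 2 with every gene, 7 with doublets kept and 0 to 1 without 1 library, and their falls were 11 over cells of 1500 to 6000 UMIs. B cell rises were 1 to 3 without 1 library.

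In the interaction, every gene with a count gave 2 in dendritic cells and 4 in neutrophils; neutrophils had 2 with RLE factors, 2 with doublets kept, 0 over cells of 1500 to 6000 UMIs and 0 to 2 without 1 library. The CD45-negative class had 0 with RLE factors, without scaling factors, with the members among the clustering genes and over cells of 1500 to 6000 UMIs, 1 at Leiden resolution 2 and 0 to 2 without 1 library. Signs reversed, over cells of 1500 to 6000 UMIs, for Tpi1 between genotypes in gamma-delta T cells (-0.66) and for Eno1 (0.22), Pgk1 (0.29), Mif (0.49) and Hif1a (0.21) in neutrophils against the main classes. Mif there was 0.11 without WT-2 and -0.48 without cKO-1, the ends of its range without 1 library, Hif1a was 0.0215 with the members among the clustering genes, and Slc2a1 in gamma-delta T cells against the lineage was 0.32 with doublets kept. The cause was not tested. Depth limits the minor classes: the 4 neutrophil sums hold 121290 to 469731 UMIs, and 31 of the 37 genes passed the count filter between genotypes there and 27 in gamma-delta T cells.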
